A study of Mus musculus with 15 samples.

Results

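Nuclear receptors and the coregulator proteins that they recruit were followed through the small intestinal epithelium of adult mice. The set was a list of 39 gene symbols. It held receptors for fatty acids, oxysterols, drugs, thyroid hormone, retinoids and steroids, the orphan receptors related to them, and 3 coregulators, namely Ncor1, Ppargc1a and Ppargc1b. A member was taken as measured when a transcript cluster of the array carried its symbol and no other, and the cluster with the highest mean was used. By this rule 36 of the 39 had a value, among 19938 symbols in the table, and Nr1h2, Nr2e3 and Ncor1 were not named by the annotation used here. The members were listed by name, but with earlier results of these data known. Shares of called members are therefore not those of a list drawn without sight of the data.

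Nuclear receptors are transcription factors, and most of those with a known ligand switch from repression to activation when a fat-soluble hormone, a metabolite or a drug binds them. Many of the receptors in the set bind DNA as a pair with a retinoid X receptor, and coactivators or corepressors carried by the receptor then alter the chromatin at the target gene. In the intestinal epithelium they are known for tuning fat absorption, bile acid handling, drug metabolism and the daily clock to what the lumen delivers.

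The study measured RNA of isolated epithelial cells with Affymetrix Mouse Gene 1.0 arrays in 5 groups of 3 arrays. The groups were the ileum of Gata4 cKI mice, the ileum of control mice, the jejunum of Gata4 cKO mice, the jejunum of wild-type CD1 mice and the ileum of wild-type CD1 mice. GATA4 is a zinc finger transcription factor that is present in the jejunum and nearly absent from the distal ileum. The labels call all animals adult. The strain and genotype of the control mice, the promoter driving the recombinase, the exons removed in the cKO mice, pooling of animals, sex and time of harvest are not among what the sources used here give. No jejunum of control littermates was among the samples, so in the comparison of cKO with wild-type CD1 jejunum genotype and strain cannot be told apart. Nothing in the labels says that the 3 arrays of a group came from separate animals, so the p-values measure the spread between these samples, which may be technical.

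All values are levels on a log2 scale, on which a difference of 1 is a doubling, and their number limits the precision. Gata4 itself had levels of 8.02, 8.43 and 8.17 in cKI ileum, against 6.71, 7.22 and 6.53 in control ileum, a difference of 1.38 ± 0.185 (SE, limma adjusted p = 0.00453). In the arrays labelled cKO jejunum Gata4 had levels of 9.72, 9.88 and 9.93, against 9.68, 9.45 and 9.47 in wild-type jejunum, a difference of 0.31 ± 0.185 (adjusted p = 0.322). The Gata4 signal was therefore not lower under the cKO label. Which exons the probes cover was not given, so the signal may check nothing there, and these arrays are called the cKO-labelled jejunum throughout. Wild-type ileum had Gata4 levels of 5.99, 5.43 and 5.39, and control ileum was higher than it by 1.22 ± 0.185 (adjusted p = 0.000284). All 9 epithelial markers lay above the level filter in every group, all 5 nerve and glia markers lay below it, and 1 of 7 endothelial markers passed. All 6 T and NK cell markers also lay above it in every group, as did 7 to 12 of 14 stromal and 2 to 3 of 4 myeloid markers. Of 3 B and plasma cell markers, 3 lay above it in control ileum and in wild-type ileum, 1 in cKI ileum and 0 in the jejunal groups. Array medians ran from 4.82 to 5.0.

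A gene was tested when its highest group mean exceeded 4.91, the median of the table. This left 26 of the 36 measured members, among 11784 genes tested. The 10 members below the filter in every group were Rarb, Rora, Rorb, Rxrg, Nr2f1, Esr1, Esr2, Esrrb, Nr4a1 and Nr4a3, and their highest group means lay between 3.08 and 4.69. Estrogen receptors, the retinoid-related orphan receptors Rora and Rorb and the immediate early receptors Nr4a1 and Nr4a3 were thus not compared. Of the 26 tested members, 26 exceeded the filter in cKI ileum, 26 in control ileum, 26 in cKO-labelled jejunum, 26 in wild-type jejunum and 25 in wild-type ileum. Nr1i3 was the member under it in wild-type ileum.

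**Figure D1:**
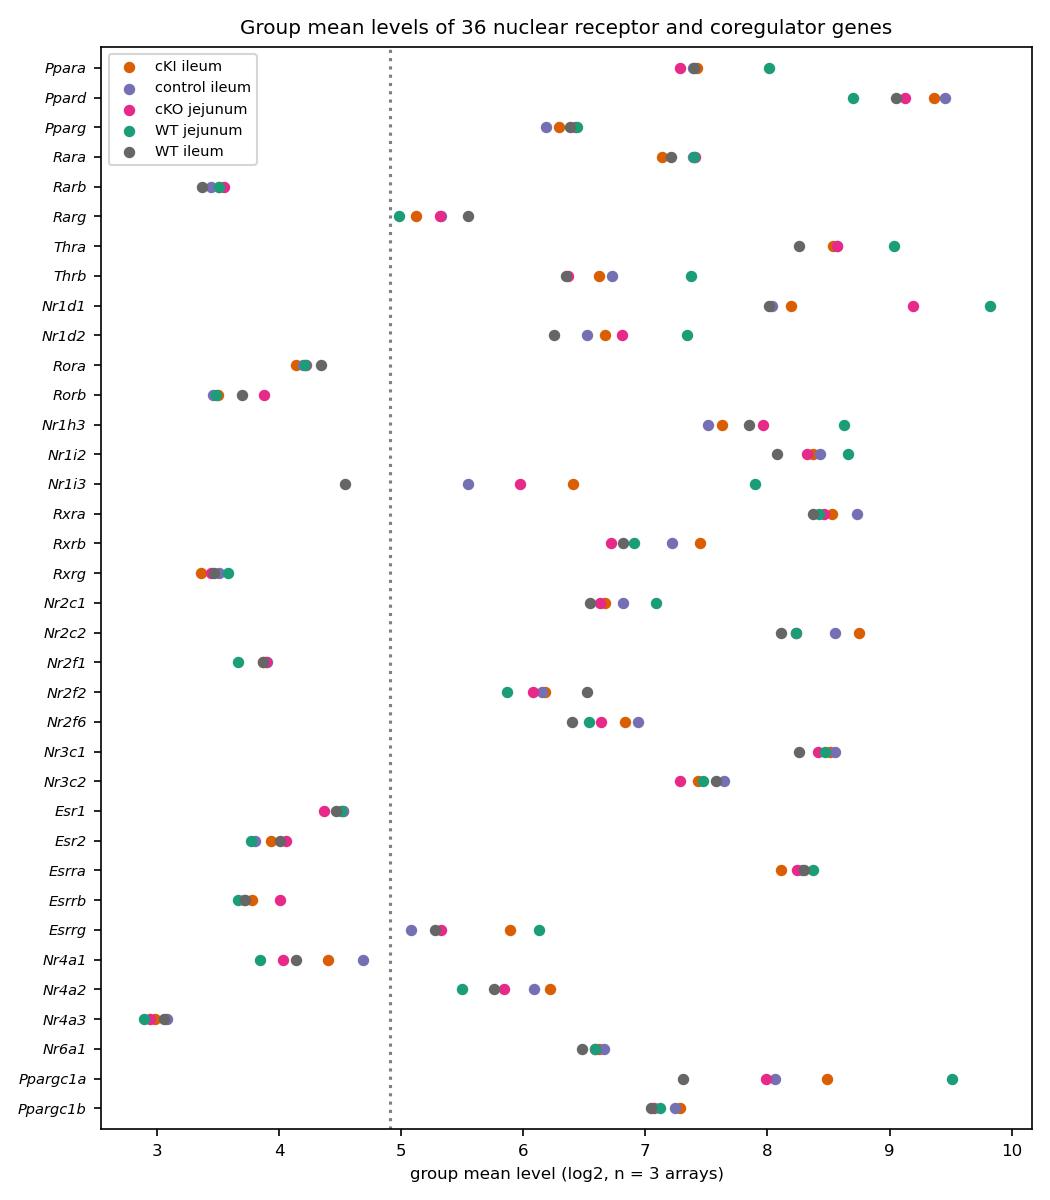
Group mean levels on the log2 scale (x axis, n = 3 arrays for each point) of the 36 measured nuclear receptor and coregulator genes (y axis, in family order), with cKI ileum, control ileum, cKO-labelled jejunum, wild-type jejunum and wild-type ileum in 5 colours and the level filter of 4.91 as a dotted line. The points of most genes lie close together, while those of Nr1i3, Ppargc1a and Nr1d1 are spread, with wild-type jejunum at the high end.

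The promoters of some members that were higher in wild-type jejunum than in wild-type ileum are shown first. RefSeq promoter windows on build GRCm38.p6, running from 250 bases before the transcription start to 50 bases after it, were found for 36 of the 39 members, with 56 windows in all. The windows were searched on both strands for 3 kinds of motif. The GATA motif was any of 4 words, spelled AGATAA or with the last letter changed AGATAG, or with the first letter changed TGATAA or with both changed TGATAG. The hexamer that nuclear receptors commonly bind was AGGTCA. The E-box to which the clock activators bind was the palindrome CACGTG. The GATA words can overlap each other but none overlaps the other motifs in the windows printed here. A GATA word stood in 10 of the 56 member windows (17.9%), against 29.8% of all 32851 windows. The hexamer stood in 16.1% of the member windows, against 16.3% of all windows, and the E-box in 8.93%, against 7.15%. The windows below belong to Nr1i3, Ppargc1a and Thrb, the members with the lowest adjusted p between wild-type jejunum and ileum, and to Nr2c1, a member higher in the jejunum whose window holds GATA words. They are written 5′ to 3′ on the strand of the gene, with each matched motif in capitals.
Nr1i3, chr1:171213720-171214019, plus strand: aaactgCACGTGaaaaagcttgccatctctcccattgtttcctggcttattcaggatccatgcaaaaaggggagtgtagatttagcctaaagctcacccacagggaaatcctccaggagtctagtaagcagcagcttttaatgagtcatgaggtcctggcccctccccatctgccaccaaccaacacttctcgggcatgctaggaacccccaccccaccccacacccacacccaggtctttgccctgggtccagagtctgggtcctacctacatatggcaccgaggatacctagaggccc
Ppargc1a, chr5:51567676-51567975, minus strand: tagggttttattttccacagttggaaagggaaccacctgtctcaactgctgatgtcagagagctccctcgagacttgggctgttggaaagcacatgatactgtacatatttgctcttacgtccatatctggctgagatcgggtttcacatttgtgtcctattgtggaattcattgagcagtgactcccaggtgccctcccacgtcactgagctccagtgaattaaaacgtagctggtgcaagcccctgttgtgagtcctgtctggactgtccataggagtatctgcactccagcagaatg
Thrb window 1, chr14:17660710-17661009, plus strand: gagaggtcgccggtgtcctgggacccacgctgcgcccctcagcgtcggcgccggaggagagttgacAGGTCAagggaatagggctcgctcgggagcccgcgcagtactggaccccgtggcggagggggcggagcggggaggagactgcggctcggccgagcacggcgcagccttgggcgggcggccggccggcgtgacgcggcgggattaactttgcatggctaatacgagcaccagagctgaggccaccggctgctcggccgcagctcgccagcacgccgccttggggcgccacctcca
Thrb window 2, chr14:17981394-17981693, plus strand: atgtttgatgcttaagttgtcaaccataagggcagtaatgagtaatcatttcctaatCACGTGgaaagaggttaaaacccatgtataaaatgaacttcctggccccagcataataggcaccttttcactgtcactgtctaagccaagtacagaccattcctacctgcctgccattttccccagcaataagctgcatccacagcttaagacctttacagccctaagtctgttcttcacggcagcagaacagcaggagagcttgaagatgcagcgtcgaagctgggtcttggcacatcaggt
Nr2c1, chr10:94147681-94147980, plus strand: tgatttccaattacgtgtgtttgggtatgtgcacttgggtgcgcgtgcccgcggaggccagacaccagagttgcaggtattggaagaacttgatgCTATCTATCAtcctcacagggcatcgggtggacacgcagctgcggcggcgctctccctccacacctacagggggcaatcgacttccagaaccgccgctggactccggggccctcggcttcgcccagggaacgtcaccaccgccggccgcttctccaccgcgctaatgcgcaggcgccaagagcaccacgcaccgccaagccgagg

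The Nr1i3 window had 1 E-box and no GATA word or hexamer. The Ppargc1a window had none of the 3 kinds of motif. Of the 2 Thrb windows, the first had 1 hexamer and the second 1 E-box. The Nr2c1 window had 2 GATA words that overlap on the opposite strand. Among the other members called between jejunum and ileum, a GATA word stood in a window of Nr2f2 and in one of Rarg. A match is a string of letters and not a bound site, and nothing about GATA4 follows from a window without one.

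The comparison of wild-type jejunum with wild-type ileum asks how the receptors differ along the normal gut. The jejunum had the higher level of 11 of the 26 tested members, the lower level of 3, and no call for 12. That is 53.8% of the members called, where 21.3% of all genes tested were called, 13.4% as higher and 7.91% as lower. The members with the highest differences were Nr1i3, Ppargc1a, Nr1d1, Nr1d2 and Thrb, which stand for drug sensing, mitochondrial biogenesis, the clock and thyroid hormone. The median difference was 0.17 over the members and 0 over all genes tested. Of 7 tested nuclear receptors outside the set, 2 were higher and 2 lower, with a median of -0.06. Hnf4g and Vdr were higher, by 0.89 ± 0.128 and 0.4 ± 0.134 (limma adjusted p = 0.000121 and 0.0448). Nr1h4 and Nr5a2 were lower, at -1.77 ± 0.159 and -0.42 ± 0.135 (1.49e-06 and 0.0364). In bulk RNA, fewer cells of a type and less RNA per cell cannot be told apart.

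The xenobiotic receptors came first. Nr1i3 encodes CAR, the constitutive androstane receptor, which switches on drug-metabolising enzymes. Its levels were 7.8, 8.24 and 7.66 in wild-type jejunum, against 4.26, 4.53 and 4.82 in wild-type ileum. The groups were far apart, with a log2 difference of 3.36 ± 0.198 (SE, limma adjusted p = 2.23e-08). Since the ileal mean of 4.54 was under the level filter, no fold is given. Nr1i2, which encodes the related pregnane X receptor PXR, had levels of 8.65, 8.89 and 8.46 in wild-type jejunum and 8.11, 7.89 and 8.24 in wild-type ileum. These also did not overlap, but the difference was 0.58 ± 0.138 (adjusted p = 0.007).

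Of 11 tested target genes of PXR and CAR, 8 were higher in wild-type jejunum and 1 was lower. The median difference of the list was 2.66. Cyp2b10, the classic CAR target in mouse liver, had levels of 11.49, 11.48 and 11.03 in wild-type jejunum, against 4.37, 3.97 and 3.97 in wild-type ileum. Its ileal mean of 4.1 was under the level filter, so the size of the difference is uncertain. Cyp3a11, a target of PXR, differed by 4.6 ± 0.525 (adjusted p = 1.48e-05). Abcb1a, a drug efflux pump, was the lower one at -1.01 ± 0.32 (adjusted p = 0.0344).

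Among the lipid sensors, Ppara encodes the fatty acid receptor that drives oxidation, and had levels of 8.16, 8.23 and 7.62 in wild-type jejunum, against 7.48, 7.38 and 7.35 in wild-type ileum. The jejunum was higher by 0.6 ± 0.158 (adjusted p = 0.0127), with 1 jejunal array close to the ileum. The call was lost with the stromal marker mean as a covariate (adjusted p = 0.217) and without wild-type jejunum replicate 1 (0.061) or 2 (0.0731). Ppard, the widely expressed PPAR, had levels of 8.92, 8.54 and 8.63 in wild-type jejunum, against 9.13, 9.02 and 9.01 in wild-type ileum. It was lower in the jejunum by 0.35 on the log2 scale, or 1.28-fold (SE 0.112, adjusted p = 0.0343), and the call was lost in 9 of 19 alternatives. Among these were the fits without wild-type ileum replicate 1, 2 or 3 (0.114, 0.0688 and 0.0643) and without wild-type jejunum replicate 2 or 3 (0.162 and 0.0981). Pparg, known from fat cells and macrophages, differed by 0.06 ± 0.149 (adjusted p = 0.84).

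Targets of the PPARs were higher in the jejunum in 14 of 16 tested cases, and lower in 0 (limma; at an unadjusted p under 0.05 also 0). Their median difference was 1.44. Cd36, a fatty acid translocase, had levels of 8.74, 8.91 and 8.26 in wild-type jejunum, against 3.33, 3.02 and 3.04 in wild-type ileum. Pdk4, a kinase that spares glucose, had means of 7.53 in wild-type jejunum and 4.01 in wild-type ileum (adjusted p = 1.89e-07). The ileal means of Cd36 and Pdk4 were under the level filter, so the sizes of these differences are uncertain. For Ehhadh, which oxidises fatty acids in peroxisomes, the difference was 1.43 ± 0.13 (1.69e-06).

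Nr1h3, which encodes the oxysterol receptor LXR alpha, had levels of 8.83, 8.67 and 8.39 in wild-type jejunum, against 7.91, 7.66 and 7.99 in wild-type ileum. The groups did not overlap and the difference was 0.78 ± 0.179 (adjusted p = 0.00531). The LXR target list did not move as a block, with 3 of 11 tested genes higher, 4 lower and a median of 0. Abcg8, part of the sterol export pump, was higher by 1.12 ± 0.203 (adjusted p = 0.000943). Scd2, a fatty acid desaturase, was lower, at -3.39 ± 0.122 (adjusted p = 1.47e-10).

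Both thyroid hormone receptors were higher in wild-type jejunum. Thrb had levels of 7.42, 7.55 and 7.14 there, against 6.26, 6.21 and 6.59 in wild-type ileum, a 2.03-fold difference (log2 1.02 ± 0.13, adjusted p = 4.31e-05). Thra had levels of 9.1, 9.1 and 8.92 in wild-type jejunum, against 8.35, 8.11 and 8.33 in wild-type ileum (0.78 ± 0.127, adjusted p = 0.000378). Of 6 tested genes of the thyroid hormone pathway 4 were higher and 1 was lower, with a median of 1.34. The pathway's Slc16a10, a carrier of aromatic amino acids and thyroid hormone, differed by 2.27 ± 0.215 (adjusted p = 2.46e-06). Hr, a corepressor of thyroid hormone receptors, was the lower one, at -0.59 ± 0.104 (adjusted p = 0.000725).

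Nr1d1 and Nr1d2 encode the REV-ERB repressors, which bind heme and form the second loop of the daily clock. Nr1d1 had levels of 9.75, 10.07 and 9.63 in wild-type jejunum, against 8.14, 7.78 and 8.11 in wild-type ileum (1.81 ± 0.453, adjusted p = 0.00973). Nr1d2 had levels of 7.56, 7.42 and 7.05 in wild-type jejunum, against 6.42, 6.11 and 6.2 in wild-type ileum (1.1 ± 0.2, adjusted p = 0.000945). Neither gene had overlapping groups here. Nr1d1 and Thra lie on opposite strands with overlapping ends, and whether their probes fall in the shared stretch was not given, so the separation of these 2 signals is uncertain. Of 12 tested clock genes 2 were higher and 1 was lower, with a median of 0.25. Dbp, an output gene of the clock, was higher by 1.87 ± 0.291 (adjusted p = 0.000262) and Nfil3, its antagonist, differed by -0.62 ± 0.118 (adjusted p = 0.00127).

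Esrrg and Ppargc1a act together on mitochondrial genes. Esrrg, the estrogen-related receptor gamma, had levels of 6.2, 5.94 and 6.26 in wild-type jejunum, against 5.49, 5.0 and 5.34 in wild-type ileum (0.85 ± 0.165, adjusted p = 0.00147). Ppargc1a encodes the coactivator PGC-1 alpha and had levels of 9.46, 9.75 and 9.31 in wild-type jejunum, against 7.34, 7.39 and 7.2 in wild-type ileum. That is a 4.58-fold difference (log2 2.19 ± 0.211, adjusted p = 2.93e-06). A second cluster of Ppargc1a, not used in the tests, had means of 7.29 in wild-type jejunum and 5.17 in wild-type ileum. The near relatives stayed without a call, with differences of 0.06 ± 0.13 for Esrra (95% interval -0.21 to 0.34) and 0.07 ± 0.116 for Ppargc1b (-0.18 to 0.32). Of 13 tested targets of these factors 10 were higher in the jejunum and 0 lower (limma; at an unadjusted p under 0.05 also 0), with a median of 0.42. Mdh2, a citric acid cycle enzyme, differed most surely, by 1.1 ± 0.117 (adjusted p = 7.63e-06).

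The 3 lower members were Ppard, Nr2f2 and Rarg. Nr2f2, which encodes COUP-TFII and is known from connective tissue and vessels, had levels of 5.78, 6.13 and 5.7 in wild-type jejunum, against 6.41, 6.6 and 6.56 in wild-type ileum (-0.65 ± 0.166, adjusted p = 0.0103). The retinoic acid receptor Rarg differed by -0.57 ± 0.153 (adjusted p = 0.0149). Stromal markers moved in the same direction. The array mean of the 14 stromal markers ran from 4.57 to 4.81 in wild-type jejunum and from 5.31 to 5.67 in wild-type ileum, with 7 of the 14 above the level filter in jejunum and 12 in ileum. Of 12 tested stromal markers 8 were lower in the jejunum. The direction was not confined to stroma, as 3 of 9 tested epithelial markers were also lower and 0 higher. These were Krt18, Krt8 and Cdx1, at -0.98, -0.62 and -0.62 (limma adjusted p = 3.83e-06, 0.000539 and 0.00394). These array means did not overlap between the 2 regions, so a fit with the stromal mean as a covariate cannot separate stroma from region. In that fit Nr2f2 differed by -0.93 (adjusted p = 0.0245). Under the same covariate Rarg differed by -0.23 (adjusted p = 0.57), and it also lost its call when replicate 3 of wild-type ileum (0.0653) or replicate 2 of wild-type jejunum (0.082) was left out. B and plasma cell markers moved likewise, with 2 of 3 lower and array means of 3.65 to 4.42 in wild-type jejunum and 4.97 to 5.9 in wild-type ileum. The part of B and plasma cells in the results was not tested.

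The remaining call was Nr2c1, the testicular receptor TR2, higher by 0.55 ± 0.152 (adjusted p = 0.017). It was lost with the stromal covariate (0.109) and when replicate 3 of wild-type ileum (0.0754) or replicate 1 (0.0685) or 2 (0.0892) of wild-type jejunum was left out. The retinoid X receptors, the partners of most receptors above, had no call, with differences of 0.04 ± 0.0915 for Rxra (95% interval -0.15 to 0.24) and 0.09 ± 0.127 for Rxrb (-0.18 to 0.36). Nr3c1, the glucocorticoid receptor, differed by 0.21 ± 0.108 (adjusted p = 0.207), and Nr3c2, the mineralocorticoid receptor, by -0.11 ± 0.163 (0.7). The other members without a call were Rara, Nr2c2, Nr2f6, Nr4a2 and Nr6a1, with differences between -0.26 and 0.18. Genes of retinoid metabolism were higher in 5 of 9 tested cases and lower in 1, and those of corticosteroid action higher in 2 of 9 and lower in 2.

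**Figure D2:**
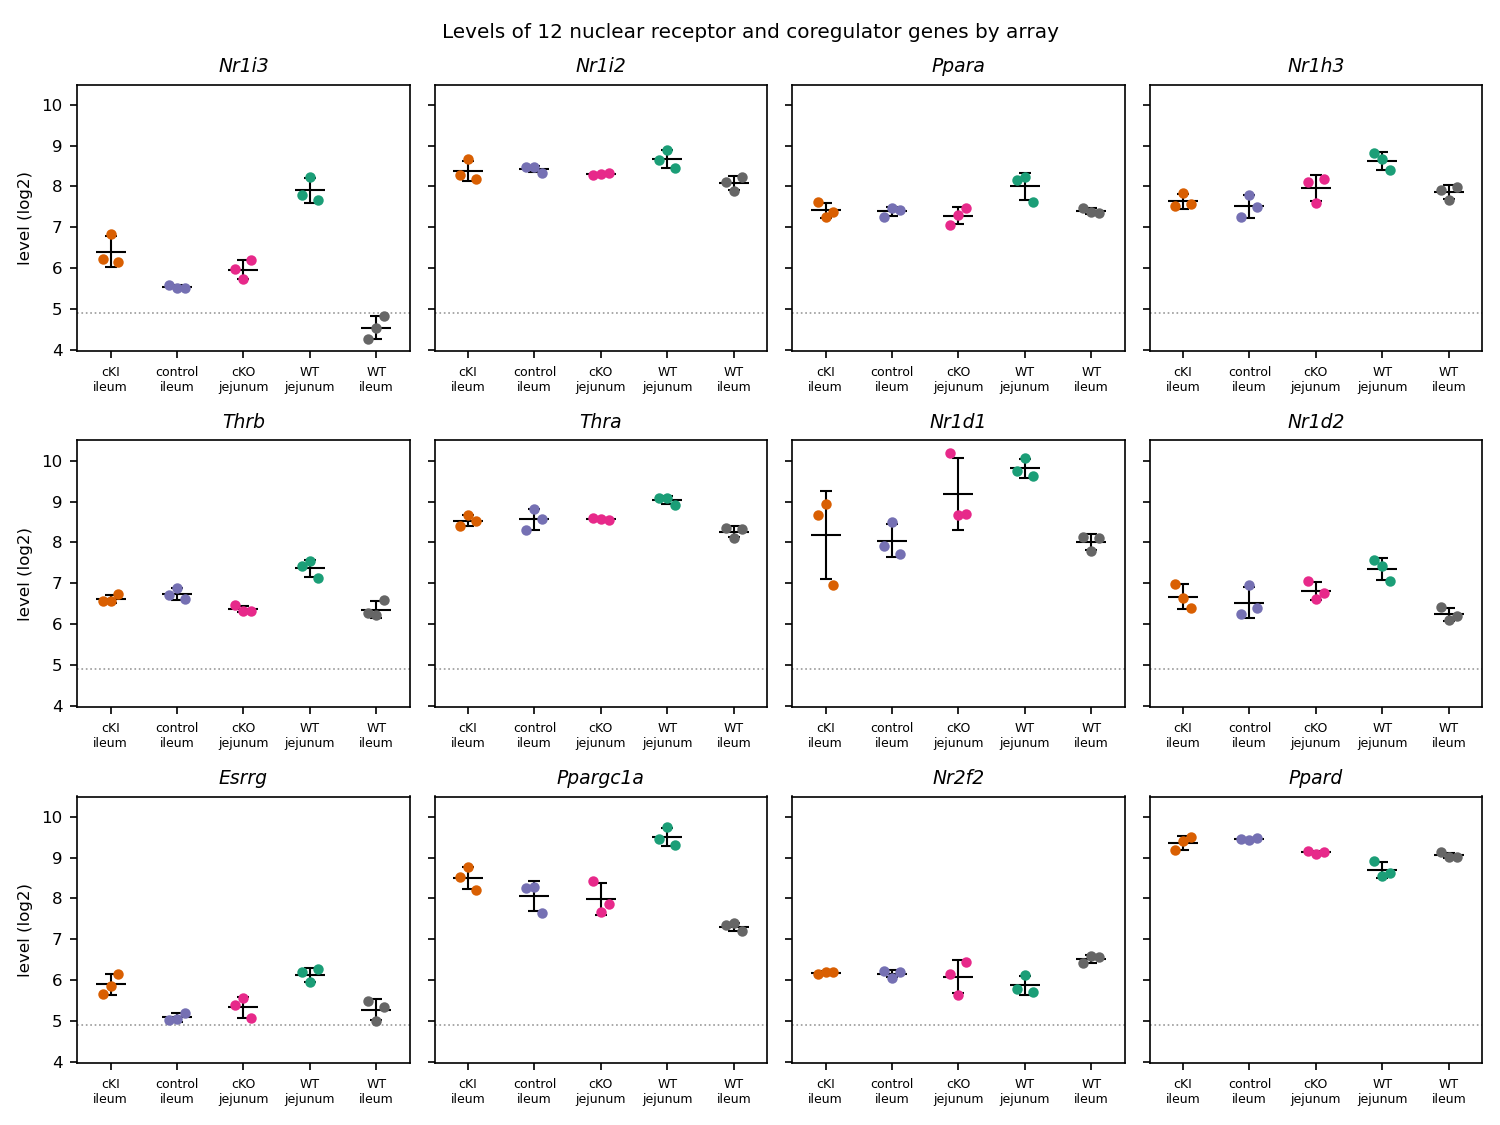
Levels on the log2 scale (y axis) of 12 nuclear receptor and coregulator genes in each array (points), with group mean and SD (bars, n = 3), for cKI ileum, control ileum, cKO-labelled jejunum (marked cKO jejunum), wild-type jejunum and wild-type ileum. Nr1i3 runs from 7.66 to 8.24 in wild-type jejunum and from 4.26 to 4.82 in wild-type ileum, with the other 3 groups between them, and the dotted line is the level filter of 4.91.

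The comparison of the cKO-labelled jejunum with wild-type jejunum asks which receptors move with the loss of GATA4, with the limits of label and strain given above. The cKO-labelled jejunum had a lower level of 7 of the 26 tested members, a higher level of 1, and no call for 18. Called members made up 30.8%, where 12.8% of all genes tested were called, 5.17% as higher and 7.65% as lower. The lower members were Nr1i3, Ppargc1a, Thrb, Esrrg, Ppara, Nr1h3 and Thra, and the higher one was Ppard. This comparison uses the same wild-type jejunum arrays as the one above, so the values are given side by side only. The median difference was -0.16 over the members and -0.03 over all genes tested.

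Nr1i3 had levels of 5.98, 5.72 and 6.19 in cKO-labelled jejunum, against 7.8, 8.24 and 7.66 in wild-type jejunum. It was lower by a factor of 3.82 (log2 -1.93 ± 0.198, adjusted p = 1.37e-05), with no overlap. Nr1i2, its relative, had levels of 8.29, 8.31 and 8.34 in cKO-labelled jejunum, against 8.65, 8.89 and 8.46 in wild-type jejunum. The difference of -0.35 ± 0.138 did not pass (adjusted p = 0.123), although the groups did not overlap. Of 11 tested targets of PXR and CAR 2 were higher and 3 lower, with a median of -0.29. Cyp2b10 had levels of 4.32, 4.04 and 5.18 in cKO-labelled jejunum, against 11.49, 11.48 and 11.03 in wild-type jejunum. Its mean of 4.51 in cKO-labelled jejunum was under the level filter. Cyp2c55 went the other way, higher by 2.82 ± 0.572 (adjusted p = 0.00403), as did Abcb1a by 1.58 ± 0.32 (0.004).

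Ppargc1a had levels of 8.43, 7.66 and 7.87 in cKO-labelled jejunum, against 9.46, 9.75 and 9.31 in wild-type jejunum, a 2.87-fold lower level (log2 -1.52 ± 0.211, adjusted p = 0.00021). Its second cluster had means of 5.53 in cKO-labelled jejunum and 7.29 in wild-type jejunum. Esrrg had levels of 5.38, 5.57 and 5.06 in cKO-labelled jejunum, against 6.2, 5.94 and 6.26 in wild-type jejunum (-0.8 ± 0.165, adjusted p = 0.00451). Neither gene's groups overlapped. Of 13 tested targets of the estrogen-related receptors and PGC-1 alpha 3 were lower and 0 higher (limma, and at an unadjusted p under 0.05 also 0 higher). Mdh2, Sdha and Sdhb, enzymes of the citric acid cycle, were the lower ones, at -0.66 ± 0.117, -0.41 ± 0.0872 and -0.36 ± 0.104 (adjusted p = 0.00145, 0.0055 and 0.0311). The list's median was -0.31.

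Thrb had levels of 6.46, 6.33 and 6.31 in cKO-labelled jejunum, against 7.42, 7.55 and 7.14 in wild-type jejunum, a 2.01-fold lower level (log2 -1.0 ± 0.13, adjusted p = 0.000114). Thra had levels of 8.59, 8.57 and 8.54 in cKO-labelled jejunum, against 9.1, 9.1 and 8.92 in wild-type jejunum (-0.47 ± 0.127, adjusted p = 0.0239). The call of Thra was lost after quantile normalization (0.0567) and without wild-type jejunum replicate 1 (0.0872) or 2 (0.089) or cKO-labelled jejunum replicate 2 (0.0631) or 3 (0.0554). In the thyroid hormone pathway 1 of 6 tested genes was higher and 1 lower. The lower one, Slc16a10, differed by -1.68 ± 0.215 (adjusted p = 0.000105), and the higher one, Hr, by 0.36 ± 0.104 (0.0311).

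Ppara had levels of 7.06, 7.31 and 7.47 in cKO-labelled jejunum, against 8.16, 8.23 and 7.62 in wild-type jejunum (-0.73 ± 0.158, adjusted p = 0.00657). Ppard had levels of 9.16, 9.1 and 9.14 in cKO-labelled jejunum, against 8.92, 8.54 and 8.63 in wild-type jejunum (0.43 ± 0.112, adjusted p = 0.0185). These receptors of the same ligand class thus differed in opposite directions. The Ppard call was lost with only the 6 arrays compared (0.0896) and without wild-type jejunum replicate 2 (0.0978) or 3 (0.0598). Among PPAR targets 7 of 16 tested were lower and 1, Cpt1a, was higher by 0.3 ± 0.0903 (adjusted p = 0.0382), with a median of -0.7. Cd36 had levels of 3.9, 3.07 and 4.32 in cKO-labelled jejunum, against 8.74, 8.91 and 8.26 in wild-type jejunum. Its mean of 3.76 in cKO-labelled jejunum was under the level filter. Pdk4 had levels of 6.14, 5.58 and 5.37 in cKO-labelled jejunum, against 7.55, 8.09 and 6.96 in wild-type jejunum, and 4.03, 4.27 and 3.72 in wild-type ileum.

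Nr1h3 had levels of 8.12, 7.59 and 8.17 in cKO-labelled jejunum, against 8.83, 8.67 and 8.39 in wild-type jejunum (-0.67 ± 0.179, adjusted p = 0.0221). The call was lost with only the 6 arrays compared (0.0617), without variance moderation (0.0547), and without wild-type jejunum replicate 1 (0.0992) or 2 (0.0746) or cKO-labelled jejunum replicate 2 (0.106). Of 11 tested LXR targets 1 was called. It was Scd2, with levels of 10.49, 10.55 and 10.58 in cKO-labelled jejunum, against 8.03, 8.05 and 7.96 in wild-type jejunum.

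The REV-ERB genes did not pass. Nr1d1 had levels of 10.2, 8.68 and 8.69 in cKO-labelled jejunum, against 9.75, 10.07 and 9.63 in wild-type jejunum, so 1 array of the cKO-labelled group was the highest of all and the other two lay below every wild-type jejunum array (-0.63 ± 0.453, adjusted p = 0.428). Nr1d2 had levels of 7.05, 6.61 and 6.76 in cKO-labelled jejunum, against 7.56, 7.42 and 7.05 in wild-type jejunum (-0.54 ± 0.2, adjusted p = 0.0973). Nr1d2 passed with array weights (0.027) and with the stromal covariate (0.0439). Among 12 tested clock genes Dbp was lower, with levels of 6.04, 5.49 and 5.48 in cKO-labelled jejunum, against 7.96, 7.61 and 6.46 in wild-type jejunum (-1.67 ± 0.291, adjusted p = 0.00132). Nfil3 was higher, by 0.57 ± 0.118 (adjusted p = 0.00437). The SD of Dbp was 0.78 over the wild-type jejunum arrays, against at most 0.32 in each of the other groups.

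The other tested members did not pass. Nr2f2 differed by 0.21 ± 0.166 (adjusted p = 0.485) and Rarg by 0.34 ± 0.153 (0.17). For Rxra the difference was 0.04 ± 0.0915 (95% interval -0.16 to 0.24), for Rxrb -0.19 ± 0.127, for Nr3c1 -0.06 ± 0.108 and for Esrra -0.13 ± 0.13. Nr2c1 differed by -0.46 ± 0.152 (adjusted p = 0.0603). The array mean of the stromal markers ran from 4.87 to 5.11 in cKO-labelled jejunum and from 4.57 to 4.81 in wild-type jejunum, and 1 of 12 tested stromal markers was higher. Of 9 tested epithelial markers 2 were higher and 0 lower. Krt18 differed by 0.87 and Krt8 by 0.39 (limma adjusted p = 3.04e-05 and 0.0228).

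Receptors outside the set gave further contrast. Of 7 tested, 3 were higher in cKO-labelled jejunum and 1 was lower. Nr1h4, the bile acid receptor FXR, had levels of 9.0, 9.15 and 9.45 in cKO-labelled jejunum, against 7.78, 8.08 and 7.89 in wild-type jejunum. Nr0b2, the corepressor-like receptor SHP that FXR induces, had means of 5.61 in cKO-labelled jejunum and 4.61 in wild-type jejunum (adjusted p = 0.0035), the wild-type mean being under the level filter. Hnf4a and Hnf4g, paralogs that bind enhancers of enterocyte genes, differed by 0.43 ± 0.117 and -0.44 ± 0.128 (adjusted p = 0.025 and 0.0345). Of 17 other coregulators Ncoa4 was lower by 0.62 on the log2 scale and Tbl1x, part of a corepressor complex, was higher by 0.39 ± 0.0971 (adjusted p = 0.00311 and 0.0145).

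**Figure D3:**
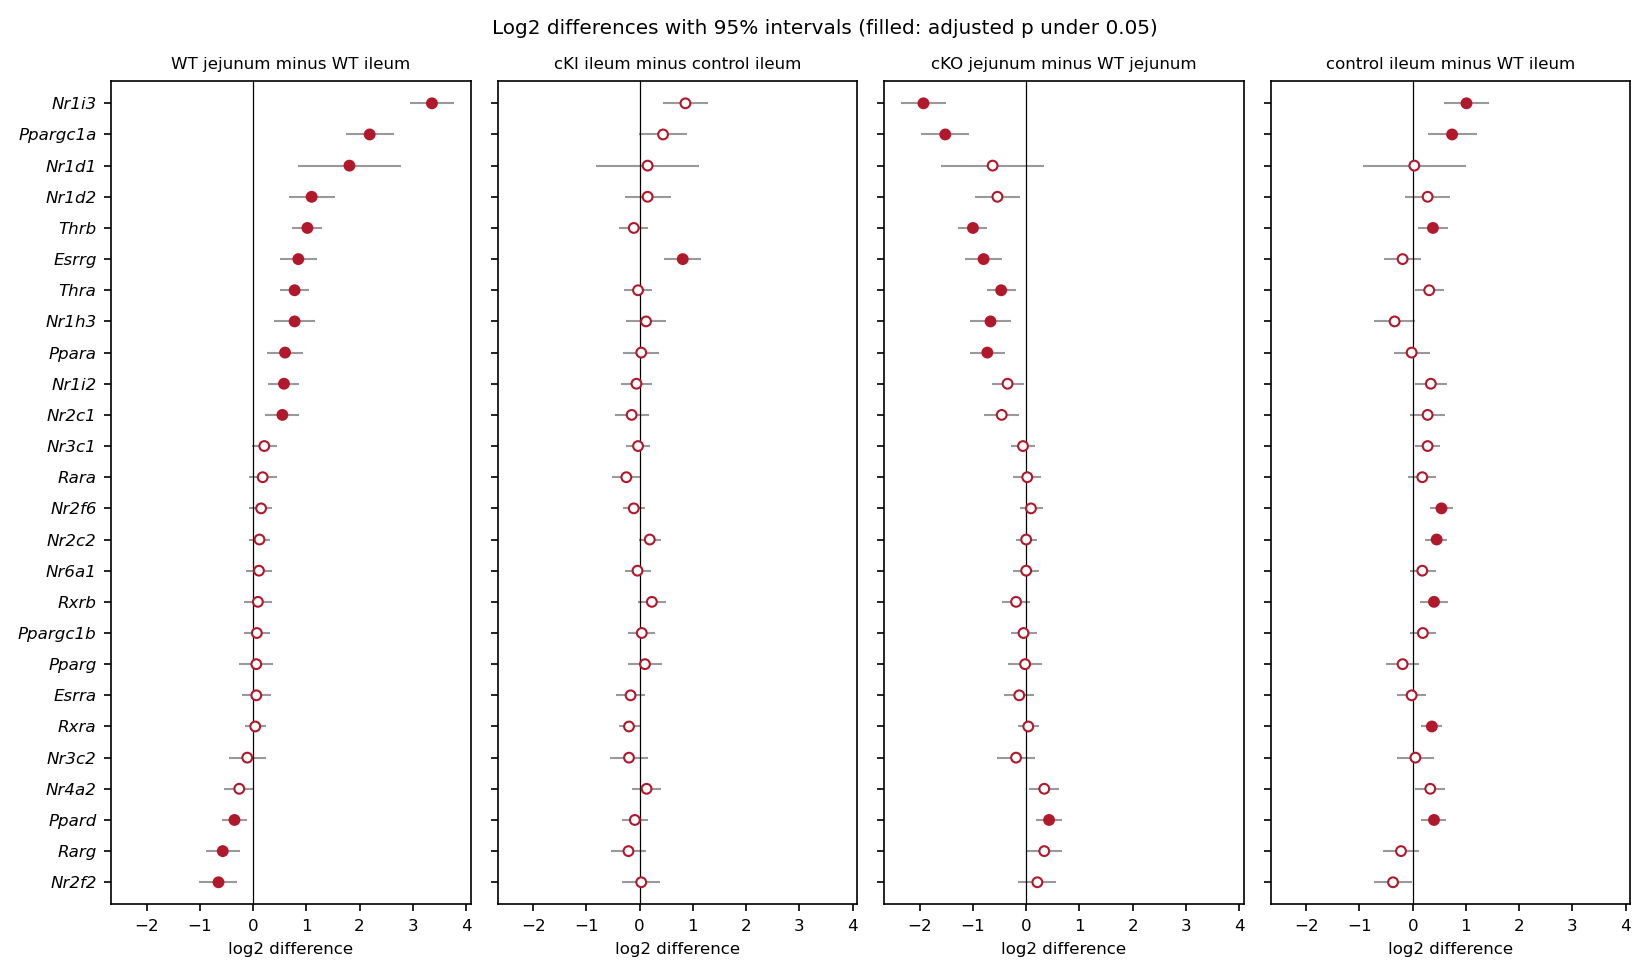
Log2 differences (x axes) of the 26 tested nuclear receptor and coregulator genes (y axis, ordered by the difference between wild-type jejunum and ileum) with 95% intervals, in 4 comparisons of 3 against 3 arrays, where cKO jejunum stands for the cKO-labelled arrays. Filled points passed an adjusted p of 0.05, which 14, 1, 8 and 8 genes did from left to right.

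The cKO-labelled jejunum was also set against wild-type ileum, which asks how far these levels lay from those of the distal gut. Region, genotype and strain cannot be told apart in this comparison. Of the 26 members 1 was higher, 0 lower and 25 not called, or 3.85%, where 5.1% of all genes tested were called, 3.26% as higher and 1.84% as lower. At an unadjusted limma p under 0.05, 6 members were higher and 1 lower, where 19.7% of all genes reached it. The called member was Nr1i3, with means of 5.97 in cKO-labelled jejunum and 4.54 in wild-type ileum (1.43 ± 0.198, adjusted p = 0.000808), where the ileal mean was under the level filter. Thrb and Esrrg differed by 0.01 ± 0.13 (95% interval -0.26 to 0.29) and 0.06 ± 0.165 (-0.29 to 0.41), and Ppara by -0.12 ± 0.158 (-0.46 to 0.21). Ppargc1a differed by 0.68 ± 0.211, which did not pass (adjusted p = 0.0867), and its second cluster had means of 5.53 in cKO-labelled jejunum and 5.17 in wild-type ileum. Nr1d1 and Nr1d2 differed by 1.18 ± 0.453 and 0.56 ± 0.2 and did not pass either (adjusted p = 0.161 and 0.134), although for both genes every cKO-labelled array was above every wild-type ileum array. Without cKO-labelled jejunum replicate 2 the count of higher members was 2, and without replicate 3 the count of lower members was 1.

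The comparison of cKI ileum with control ileum asks what added GATA4 does in the ileum. Of the 26 members 1 was higher, 0 were lower and 25 were not called, or 3.85%, where 0.764% of all genes tested were called, 0.339% as higher and 0.424% as lower. At an unadjusted limma p under 0.05, 2 members were higher and 1 lower, where 15.3% of all genes reached it. The called member was Esrrg, with levels of 5.67, 5.85 and 6.16 in cKI ileum, against 5.01, 5.04 and 5.2 in control ileum. It was 1.75-fold higher (log2 0.81 ± 0.165, adjusted p = 0.038), and the groups did not overlap. The adjusted p was at the edge. It was 0.0591 with the replicate number as a block over all arrays. With the block set separately within wild-type arrays and within cKI and control arrays it was 0.0243. It was 0.0948 with only the 6 arrays compared and 0.143 with the stromal covariate. Without any 1 of the 6 arrays (cKI ileum replicate 1, 2 or 3 and control ileum replicate 1, 2 or 3) it was 0.0702, 0.0693 and 0.142, and 0.0618, 0.11 and 0.0675, while the difference stayed between 0.67 and 0.92.

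Nr1i3 had levels of 6.23, 6.83 and 6.15 in cKI ileum, against 5.59, 5.52 and 5.52 in control ileum. The difference of 0.86 ± 0.198 did not pass (adjusted p = 0.0633), except with array weights (0.0198), although every cKI array was above every control array. Ppargc1a had levels of 8.52, 8.76 and 8.21 in cKI ileum, against 8.26, 8.27 and 7.64 in control ileum (0.44 ± 0.211, adjusted p = 0.338, and 0.0405 with array weights). The second Ppargc1a cluster had means of 7.15 in cKI ileum and 6.83 in control ileum. Its groups overlapped in the cluster tested. Thrb, by contrast, had levels of 6.56, 6.57 and 6.73 in cKI ileum, against 6.7, 6.89 and 6.62 in control ileum (-0.11 ± 0.13, 95% interval -0.39 to 0.16). The Thrb difference between wild-type jejunum and ileum was 1.02, and whether the 2 differences differ was not tested.

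Nr1d1 was uneven, with levels of 8.68, 8.93 and 6.95 in cKI ileum, against 7.92, 8.49 and 7.71 in control ileum (0.15 ± 0.453). Ppara, Nr1h3, Thra, Nr1i2 and Nr2f2 differed by 0.03, 0.12, -0.03, -0.06 and 0.03, each less than its SE. Of the targets, 0 of 16 for the PPARs, 0 of 11 for PXR and CAR and 0 of 13 for the estrogen-related receptors were called (limma; at an unadjusted p under 0.05, 3, 4 and 2). Cd36 had levels of 5.43, 5.84 and 4.83 in cKI ileum, against 3.38, 4.74 and 3.44 in control ileum, where its mean was under the level filter (adjusted p = 0.0729). Cyp2b10 had levels of 5.28, 6.14 and 4.83 in cKI ileum, against 4.09, 4.9 and 4.81 in control ileum. Its mean of 4.6 in control ileum was under the level filter. Scd2 was the called LXR target, at -0.62 ± 0.122 (adjusted p = 0.0352). T and NK cell markers ran from 5.13 to 6.55 in cKI ileum and from 6.67 to 7.39 in control ileum (array means of 6 markers), and stromal markers from 5.14 to 5.5 in cKI ileum and from 5.51 to 6.56 in control ileum. Of these, 0 of 6 T and NK cell markers were called (limma; at an unadjusted p under 0.05, 6 lower) and 2 of 12 tested stromal markers were lower, Pdgfrb at -0.78 ± 0.132 and Vim at -1.05 ± 0.228 (adjusted p = 0.0158 and 0.0493). B and plasma cell markers ran from 4.47 to 4.82 in cKI ileum and from 4.79 to 7.25 in control ileum, and 1 of 3 was lower, Jchain of plasma cells at -2.45 ± 0.48 (adjusted p = 0.0347). The part of T, NK, B and plasma cells in the results was not tested.

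This comparison shares no arrays with that of wild-type jejunum and ileum. Of the 14 members called there, 9 had the same sign here (64.3%), against 1717 of 2507 genes called in that comparison (68.5%). Of the 8 members called between cKO-labelled and wild-type jejunum, 6 had the opposite sign here, which leaves 25% with the same sign, against 25.7% of 1510 genes. The shares for the members were close to those for all genes.

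**Figure D4:**
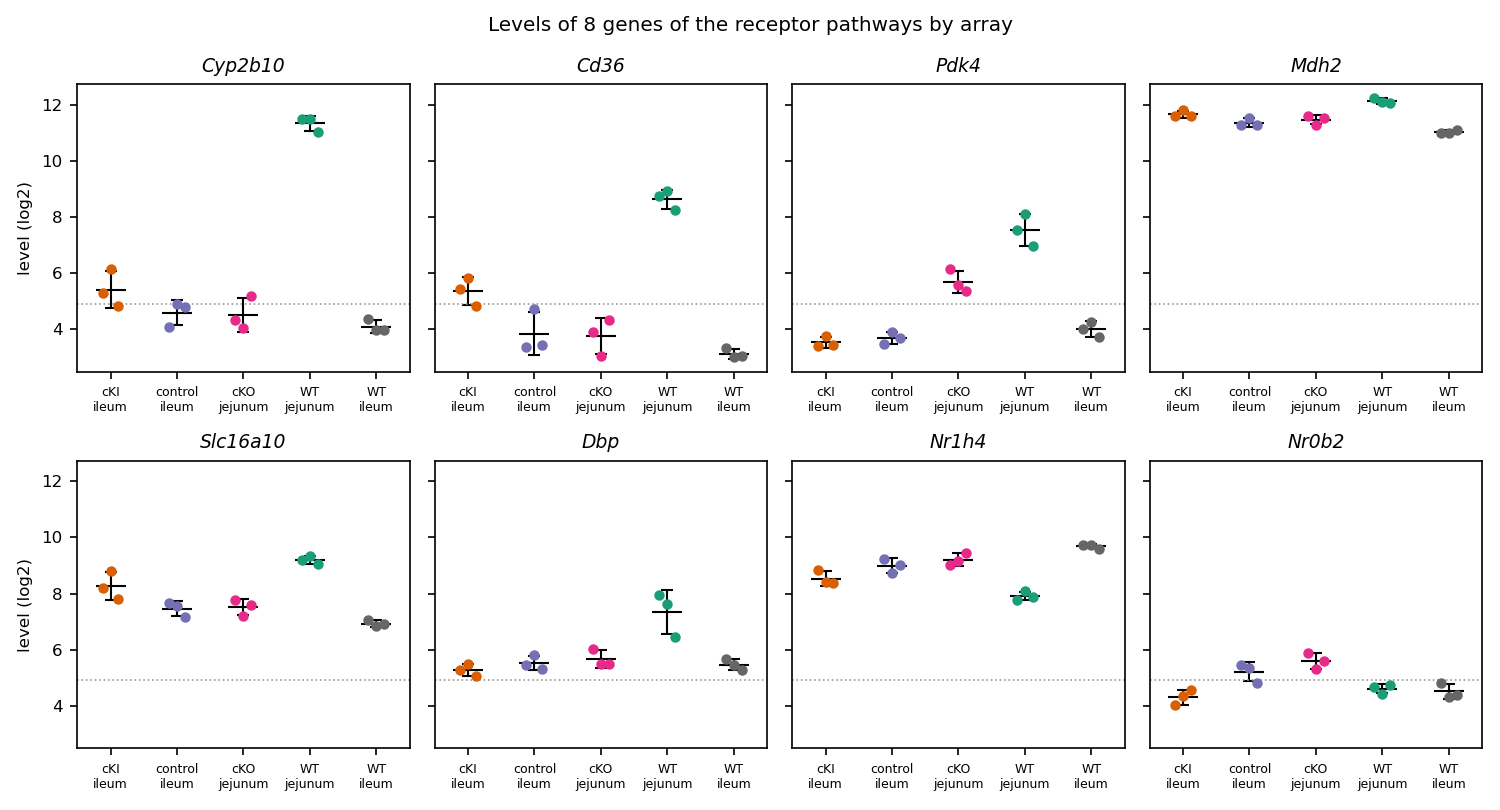
Levels on the log2 scale (y axis) of 8 genes of the receptor pathways in each array (points), with group mean and SD (bars, n = 3), for cKI ileum, control ileum, cKO-labelled jejunum (marked cKO jejunum), wild-type jejunum and wild-type ileum. Cyp2b10 and Cd36 are at 11.03 to 11.49 and 8.26 to 8.91 in wild-type jejunum and at or below 6.14 in the other groups, Nr1h4 is lowest in wild-type jejunum, and the dotted line is the level filter of 4.91.

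The cKI ileum was set against wild-type jejunum to show the distance left. Of the 26 members 5 were higher, 9 lower and 12 not called, or 53.8%, where 41.8% of all genes tested were called, 25.5% as higher and 16.3% as lower. Nr1i3 was lower, with means of 6.41 in cKI ileum and 7.9 in wild-type jejunum (-1.49 ± 0.198, adjusted p = 4.35e-05), and Ppargc1a had means of 8.49 in cKI ileum and 9.51 in wild-type jejunum (-1.01 ± 0.211, adjusted p = 0.00154). The second Ppargc1a cluster had means of 7.15 in cKI ileum and 7.29 in wild-type jejunum, and with the mean of both clusters the difference was -0.58 and lost its call (adjusted p = 0.103). The other lower members were Nr1d1, Nr1h3, Thrb, Nr1d2, Ppara, Thra and Nr2c1, at -1.63, -1.0, -0.75, -0.67, -0.59, -0.5 and -0.42. Nr2c1 lost its call in 7 of 19 alternatives, among them those without replicate 1 (0.144) or 2 (0.0566) of cKI ileum and without replicate 1 (0.112) or 2 (0.144) of wild-type jejunum, and its groups met at 6.81. Nr1d2 lost it without cKI ileum replicate 3 (0.0742) or wild-type jejunum replicate 1 (0.0661), and Ppara with the stromal covariate (0.064). Esrrg differed by -0.24 ± 0.165 (adjusted p = 0.263). The higher members were Nr4a2, an orphan receptor of the immediate early class, Ppard, Rxrb, Nr2c2 and Nr2f6, at 0.72, 0.66, 0.54, 0.52 and 0.29. Nr2f6 lost its call in 9 of 19 alternatives, among them quantile normalization (0.159) and the fits without replicate 1, 2 or 3 of wild-type jejunum (0.0691, 0.0779 and 0.0611) or replicate 3 of cKI ileum (0.152). Rxrb lost it with the stromal covariate, where its difference was 0.29 (0.117). Region, genotype and strain differ together here.

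Control ileum against wild-type ileum compares groups that both lack the cKI label. Of the 26 members 8 were higher, 0 lower and 18 not called, or 30.8%, where 27.9% of all genes tested were called, 19.3% as higher and 8.61% as lower. The members were thus called about as often as genes in general. At an unadjusted limma p under 0.05, 12 members were higher and 1 lower, where 39.8% of all genes reached it. After quantile normalization the split was 5 higher and 1 lower, the lower one being Nr2f2 at -0.51 (adjusted p = 0.0273). Nr1i3 had levels of 5.59, 5.52 and 5.52 in control ileum, against 4.26, 4.53 and 4.82 in wild-type ileum (1.01 ± 0.198, adjusted p = 0.00184), again with a wild-type mean under the filter. Ppargc1a had means of 8.06 in control ileum and 7.31 in wild-type ileum (0.74 ± 0.211, adjusted p = 0.0169), and its second cluster had means of 6.83 in control ileum and 5.17 in wild-type ileum. Strain, genotype and any batch cannot be told apart in this comparison.

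The other higher members were Nr2f6 and Nr2c2, orphan receptors, at 0.54 ± 0.0994 and 0.45 ± 0.0941, the retinoid X receptors Rxra and Rxrb at 0.36 ± 0.0915 and 0.4 ± 0.127, Ppard at 0.4 ± 0.112 and Thrb at 0.38 ± 0.13. Their adjusted p values were 0.00109, 0.00308, 0.00981, 0.03, 0.0162 and 0.0408. The Thrb call was lost in 13 of 19 alternatives, that of Rxrb in 8 and those of Ppard and Ppargc1a in 4 each. Without wild-type ileum replicate 2 or 3, or without control ileum replicate 2, the count of higher members was 5. Markers of other cell types moved between these groups as well. Of 12 tested stromal markers 3 were higher in control ileum, Vim, Dcn and Pdgfrb at 1.68, 1.17 and 0.61, and 2 were lower, Col3a1 and Col6a1 at -0.45 and -0.43. The array mean of the stromal list ran from 5.51 to 6.56 in control ileum and from 5.31 to 5.67 in wild-type ileum. Cd3e of T cells, Jchain of plasma cells and Cd68 of macrophages were higher by 1.05 ± 0.345, 2.07 ± 0.48 and 1.02 ± 0.236 (adjusted p = 0.0339, 0.00542 and 0.00538), each the only call among 6, 3 and 3 tested markers. The array means of the B and plasma cell list ran from 4.79 to 7.25 in control ileum and from 4.97 to 5.9 in wild-type ileum, and those of the T and NK cell list from 6.67 to 7.39 in control ileum and from 5.8 to 6.73 in wild-type ileum. Of 9 tested epithelial markers, the keratins Krt8 and Krt18 were higher by 0.54 and 0.39. The part of immune cells in these results was not tested. Among immediate early genes 2 of 10 tested were higher in control ileum, Zfp36 by 1.21 ± 0.217 and Egr1 by 1.77 ± 0.633 (adjusted p = 0.00099 and 0.0499), and whether handling of the tissue has a part in the results was not tested.

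Levels across all 5 groups are given last for the members with the largest differences. Nr1i3 had means of 6.41 in cKI ileum, 5.55 in control ileum, 5.97 in cKO-labelled jejunum, 7.9 in wild-type jejunum and 4.54 in wild-type ileum (SD 0.37, 0.04, 0.24, 0.3 and 0.28, n = 3 each). Wild-type jejunum was thus highest and wild-type ileum lowest, and of neighbours in the order of means only cKI ileum and cKO-labelled jejunum overlapped. Ppargc1a had means of 8.49 in cKI ileum, 8.06 in control ileum, 7.99 in cKO-labelled jejunum, 9.51 in wild-type jejunum and 7.31 in wild-type ileum. Its extremes were the same, and the 3 groups between them overlapped, in the cluster tested. The second cluster, which was not tested, had means of 7.15 in cKI ileum, 6.83 in control ileum, 5.53 in cKO-labelled jejunum, 7.29 in wild-type jejunum and 5.17 in wild-type ileum. There cKI ileum and also control ileum lay nearer to wild-type jejunum than to wild-type ileum, and cKO-labelled jejunum lay nearer to wild-type ileum. Esrrg had means of 5.89 in cKI ileum, 5.08 in control ileum, 5.33 in cKO-labelled jejunum, 6.13 in wild-type jejunum and 5.28 in wild-type ileum, and the cKI ileum overlapped with wild-type jejunum but with none of the others. Thrb stood apart from all other groups only in wild-type jejunum, where its lowest array of 7.14 exceeded the highest of the others, 6.89. Among those others, control ileum overlapped with neither wild-type ileum nor cKO-labelled jejunum, and cKI ileum did not overlap with cKO-labelled jejunum.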

How the data were processed

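RNA of isolated intestinal epithelium was hybridised to 15 Affymetrix Mouse Gene 1.0 arrays, 3 in each of 5 groups taken from the labels. The authors deposited log2 values, made in Partek per the submitters' processing notes, for 35556 transcript clusters. The Partek version, background correction and normalization are not given in the sources used here, and the log2 scale was read from the values. Of the clusters 21789 carried 1 symbol of the platform annotation, 1621 several and 12146 none listed. For each symbol the cluster with the highest mean was kept.

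Genes were tested with limma 3.58.1 in R 4.3.3, with 1 mean per group over all 15 arrays (10 residual degrees of freedom), moderated variances and Benjamini-Hochberg adjustment over 11784 genes, at 0.05. The filter kept genes whose largest group mean exceeded 4.91. The same steps were tested on simulated data with independent noise of each gene's spread. Between 50% and 58% of 1.5-fold changes and between 82% and 90% of 2-fold changes were called. Of the calls, 2.87% to 6.95% were false, the highest share being for control with wild-type ileum. Differences near 1.5-fold can therefore be missed. All members are reported. Those called in 1 of the first 3 comparisons with a log2 difference of at least 0.58 are given by array, as are Ppard and the genes set beside the receptors, which were added after their values were seen. From each list at most 4 genes with the smallest p are named, and also single genes that went against the rest of a list, chosen after their values were seen. The members and the gene lists were chosen with earlier results of these data known.

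Samples with the same replicate number were compared by the correlation of deviations from the group means, with a limit of 0.1. All values exceeded it for wild-type jejunum with wild-type ileum (0.334, 0.216 and 0.161) and for cKI with control ileum (0.128, 0.177 and 0.258). They did not all exceed it for cKO-labelled with wild-type jejunum (0.185, -0.0247 and -0.0732). For cKO-labelled jejunum with wild-type ileum, whose labels differ in genotype, the values were 0.474, 0.257 and 0.058. Such correlations therefore cannot show that the numbers pair samples. Promoter windows are from RefSeq (GRCm38.p6), and none is printed for chromosome 18 genes. Alternatives were other normalizations, filters, variance models, samples, a replicate block, a stromal covariate and leaving out each array. The stromal array means overlapped only between control and wild-type ileum among the comparisons. In the others the covariate cannot separate stroma from the difference between groups.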

Additional observations from a re-analysis of the deposited data

How the results depend on the processing

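Of 168 recomputed counts of called members, other than those leaving out an array, 148 lay within 1.5 times the reported count, and of 1291 recomputed member differences 1160 kept their call and direction, 93 lost the call, 10 gained it and 28 changed sign. For those that moved the cause was not tested, unless fewer samples or a stricter rule enter by construction. Between wild-type jejunum and ileum the count of lower members was 1 with the stromal covariate and 1 with a smallest difference of 0.58. Between cKI and control ileum the count of higher members was 0 with no level filter, with no variance moderation, with the replicate block over all arrays, with the stromal covariate and with only the 6 arrays compared, and 3 with array weights. Between cKO-labelled and wild-type jejunum the count of higher members was 0 with only the 6 arrays compared and 0 with the smallest difference of 0.58. Between control and wild-type ileum the count of higher members was 5 after quantile normalization, 5 with the stromal covariate and 2 with the smallest difference of 0.58, and that of lower members was 1 after quantile normalization, 1 with only the 6 arrays and 2 with array weights. Between cKO-labelled jejunum and wild-type ileum the count of higher members was 2 with the replicate block over all arrays and 2 with the stromal covariate. Between cKI ileum and wild-type jejunum it was 3 with the stromal covariate and 2 with the smallest difference of 0.58. With 1 array left out, the count of lower members between wild-type jejunum and ileum ran from 1 to 3, and that of higher members from 0 to 0 between cKI and control ileum, 0 to 2 between cKO-labelled and wild-type jejunum, 5 to 7 between control and wild-type ileum and 1 to 2 between cKO-labelled jejunum and wild-type ileum, where that of lower members ran from 0 to 1.

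The replicate block over all arrays changed the reported call of Esrrg (adjusted p = 0.0591) between cKI and control ileum. It also changed that of Thrb between control and wild-type ileum (0.0598). The block set separately within wild-type arrays and within cKI and control arrays changed that of Thrb too (0.0859).

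Changes of sign were confined, in these alternatives, to differences that had no call. Between cKI and control ileum, Ppara was -0.02 after quantile normalization and -0.03 with the stromal covariate, Thra 0.01 after centring and 0.28 with the covariate, Nr1i2 0.05 with the covariate, and Nr2f2 -0.01 with array weights and -0.19 with the covariate. With 1 array left out, Ppara ran from -0.08 to 0.11, Thra from -0.16 to 0.1, Nr1d1 from -0.23 to 0.77, Nr1d2 from -0.01 to 0.36, Nr1h3 from -0.01 to 0.26, Nr1i2 from -0.2 to 0.03 and Nr2f2 from -0.02 to 0.06. Between control and wild-type ileum, Ppara was 0.02 with array weights and 0.02 with the covariate, and Nr1d1 -0.09 after quantile normalization, -0.02 after centring, -0.18 with array weights and -0.32 with the covariate. With 1 array left out Ppara ran from -0.06 to 0.05 there and Nr1d1 from -0.19 to 0.2.

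Scaling moved the share of higher genes among all called genes. It was 62.8% between wild-type jejunum and ileum as deposited, and 52% after quantile normalization. It was 44.4% and 33.7% between cKI and control ileum, 40.3% and 51.2% between cKO-labelled and wild-type jejunum, and 69.1% and 47.9% between control and wild-type ileum (58.6% after centring each array). With 3 arrays per group and values already normalized, small differences of weakly expressed members such as Rarg and Esrrg are limited by the array background, which the deposited values do not give.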
